A study of Arabidopsis thaliana with 2 samples.

Results

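Ubiquitin-conjugating enzymes (E2 enzymes) of Arabidopsis thaliana were read on 2 ATH1 GeneChip arrays of stem RNA. The genes described are UBC16, UBC18, UBC19, UBC20, UBC22, UBC27, UBC28, UBC29, UBC30 and UBC32. They are the 10 named genes whose probe set, a group of short oligonucleotides that reads 1 transcript, the platform annotation assigns to that gene alone. Each gene had 1 probe set, so 10 of 13513 probe sets naming 1 gene, and of 22746 probe sets in all, were members. The rule names genes and uses no measured value, but it was set with earlier results of these data known.

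Ubiquitin is joined to proteins in a relay. An activating enzyme (E1) charges ubiquitin, an E2 enzyme takes it over on a cysteine, and a ligase (E3) brings the charged E2 to the protein to be marked. The E2 has a large say in which kind of ubiquitin chain is built, and the chain decides whether the protein goes to the proteasome or to another fate. Arabidopsis has many E2 genes, which fall into small groups of close relatives.

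The arrays compared wild-type stem with stem of plants that express AtC3H14, a CCCH zinc finger protein gene, from the 35S promoter (35S::AtC3H14). That promoter, of viral origin, is active in most plant tissues. Both samples were of the Columbia (Col-0) background, from soil-grown plants aged 30 days at 23 °C in a cycle of 16 h light and 8 h dark, and in both the stem was sampled from its base to the 3rd internode. Each group had 1 sample and 1 array, and the sources used here do not give the number of plants or of transgenic lines in each. The signal of AtC3H14 (AT1G66810) itself was 244 without and 8655 with the transgene, a 35.5-fold difference in the direction of the label.

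The values are MAS5 signals, in which each array was brought to a common average. A signal of 104, the 40th percentile of all signals of the 2 arrays, was used as a floor. All 10 members lay above it on both arrays. UBC31 and UBC37, also read alone but not among the named genes, lay below it on both. With 1 array per group there is no replicate spread and no test, so a fixed size of 2-fold stood in for one. The only spread these arrays hold comes from 58 genes with several probe sets (117 in all). Within a gene, their log2 ratios had a pooled SD of 0.35, which contains no variation between plants, extractions or arrays. Among tissue markers, all 4 xylan synthesis genes read alone, IRX10 (log2 ratio -0.018), IRX10-L (0.22), IRX15 (-0.45) and IRX15-L (-0.068), were above the floor on both arrays. So were the green tissue genes RCA, PRK and LHCB4.1, with log2 ratios of 0.042, 0.093 and -0.32. The anther gene A9 and the root gene PRX72 were below it on both. PYK10, a beta-glucosidase gene best known from roots, went from 614 to 56.4, which is below the floor, so at least 5.9-fold lower. The other 5 secondary wall markers looked for (CESA4, CESA7, CESA8, FLA11 and FLA12) were not analysed here.

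Of the 10 enzymes, UBC20 was the 1 gene at least 2-fold higher and UBC16 the 1 gene at least 2-fold lower in 35S::AtC3H14. Among all 12826 probe sets above the floor on both arrays, 10.1% were past 2-fold, 4.51% higher and 5.61% lower. A count of 2 among 10 is too small to set the enzymes apart from that share. The other 8 genes had differences of at most 1.46-fold, with log2 ratios from -0.55 to 0.42.

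**Figure D1:**
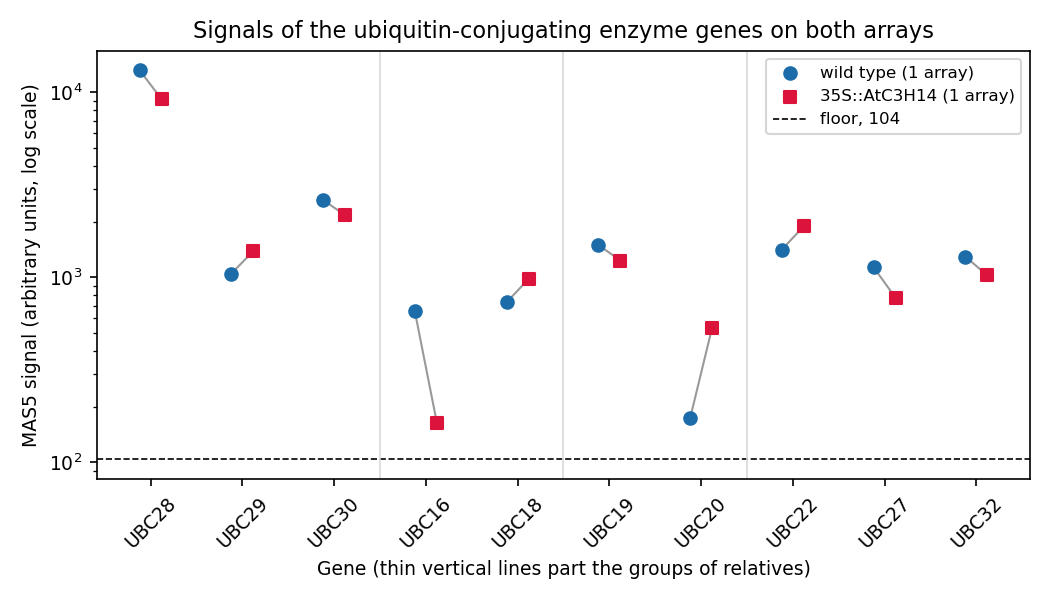
MAS5 signal (log axis) of each of the 10 genes on the wild-type array (circles) and the 35S::AtC3H14 array (squares), with 1 array per group and hence no error bars; thin vertical lines part the groups of relatives and the dashed line is the floor of 104. UBC16 goes down from 655 to 164 and UBC20 up from 173 to 534, while the lines of the other 8 genes are short.

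UBC19 (AT3G20060) and UBC20 (AT1G50490) are the plant relatives of E2-C, the enzyme that in yeast and animals works with the anaphase-promoting complex (APC/C), the E3 that marks mitotic cyclins for destruction. Of this pair, UBC20 was past 2-fold and UBC19 was not. The wild-type signal of UBC20 was 173 and its 35S::AtC3H14 signal 534, 3.09-fold higher, a log2 ratio of 1.63. Only 142 of the 12826 probe sets, UBC20 included, had a log2 ratio at least as high. For UBC19 the wild-type signal was 1495 and the 35S::AtC3H14 signal 1231, a log2 ratio of -0.28, and 59.4% of all probe sets differed as far in one direction or the other.

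The contrast of the pair, the log2 ratio of UBC19 minus that of UBC20, was -1.91, a 3.75-fold gap between their responses. This gap was 3.86 times the SD of a difference between 2 probe sets of the same gene, 0.49. A constant scaling of the arrays cancels in it, and it was -1.80 after quantile normalization and -1.83 after loess. It rests on 1 signal in wild type, that of UBC20, which lay 1.66-fold above the floor. With the floor raised to the 60th percentile of signals, 308, the wild-type signal of UBC20 fell below it. What was then shown was a bound of 0.79 in log2 ratio for UBC20, under 2-fold, and a gap of at least 1.07. A difference in the number of dividing cells and a difference in transcript per cell cannot be told apart in RNA of whole stem, and this holds for every gene named here.

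UBC16 (AT1G75440) and UBC18 (AT5G42990) belong to the small plant group of UBC15. They too differed from each other. UBC16 went from 655 in wild type to 164 in the overexpressor, 3.99-fold lower, a log2 ratio of -2.00. It was the 75th lowest of the 12826 ratios, and 1.01% of probe sets differed as far. UBC18 went from 732 to 979.8, 1.34 times as high and under 2-fold. The gap between these relatives, -2.42 in log2 ratio, was 5.34-fold and the widest within any of the groups of relatives. The signal of UBC16 in the overexpressor lay 1.58-fold above the floor, and with the higher floor its log2 ratio became a bound of -1.09, still past 2-fold.

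UBC28 (AT1G64230), UBC29 (AT2G16740) and UBC30 (AT5G56150) belong with UBC8 to the group related to yeast Ubc4 and Ubc5, E2 enzymes that serve many E3 ligases and act in general protein turnover. None of the 3 was past 2-fold. UBC28 went from 13124 in wild type to 9158 in 35S::AtC3H14, a log2 ratio of -0.52. UBC30 went from 2612 to 2165, a log2 ratio of -0.27. UBC29 went the other way, from 1046 to 1386, a log2 ratio of 0.41. The range over the 3 genes was 0.92 in log2 ratio, 1.88 SDs of a difference for the outermost pair, UBC28 and UBC29. Probe sets of such close relatives can take up signal from each other and from members of the group not analysed here, and whether they did was not tested. The same limit applies to UBC19 and UBC20 and to UBC16 and UBC18.

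The other 3 enzymes stand apart from these groups in structure or place of work. UBC22 (AT5G05080), which in Arabidopsis builds chains through a lysine of ubiquitin used in cell-cycle control in animals, went from 1409.8 to 1888, a log2 ratio of 0.42. UBC27 (AT5G50870), which carries a ubiquitin-binding UBA domain beside its catalytic domain and acts in abscisic acid responses, went from 1132 to 774, a log2 ratio of -0.55 and the largest difference after UBC16 and UBC20. UBC32 (AT3G17000), an enzyme anchored in the endoplasmic reticulum that takes part in the removal of misfolded proteins there, went from 1293 to 1023, a log2 ratio of -0.34. All 3 were under 2-fold. Of all probe sets, 31.1% differed at least as far as UBC27.

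Set against each other, the 10 genes had 4 ratios above wild type and 6 below, a median log2 ratio of -0.28 and an SD of 0.94. Over all probe sets above the floor the median was 0.039 and the SD 0.64. Without UBC16 and UBC20 the SD of the remaining 8 was 0.43. It had to fall, since the most extreme genes were taken out, and it cannot be set against 0.64, from which no extremes were removed. Of the 45 pairs of members, 17 differed in response by 2-fold or more. These 17 are all the pairs that hold UBC16 or UBC20, so the count restates those 2 genes. How common such gaps are between any 2 probe sets was not worked out. Among the 28 pairs without UBC16 and UBC20 the widest gap was 0.97. UBC18, UBC22 and UBC29 lay within 0.015 of each other in log2 ratio.

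**Figure D2:**
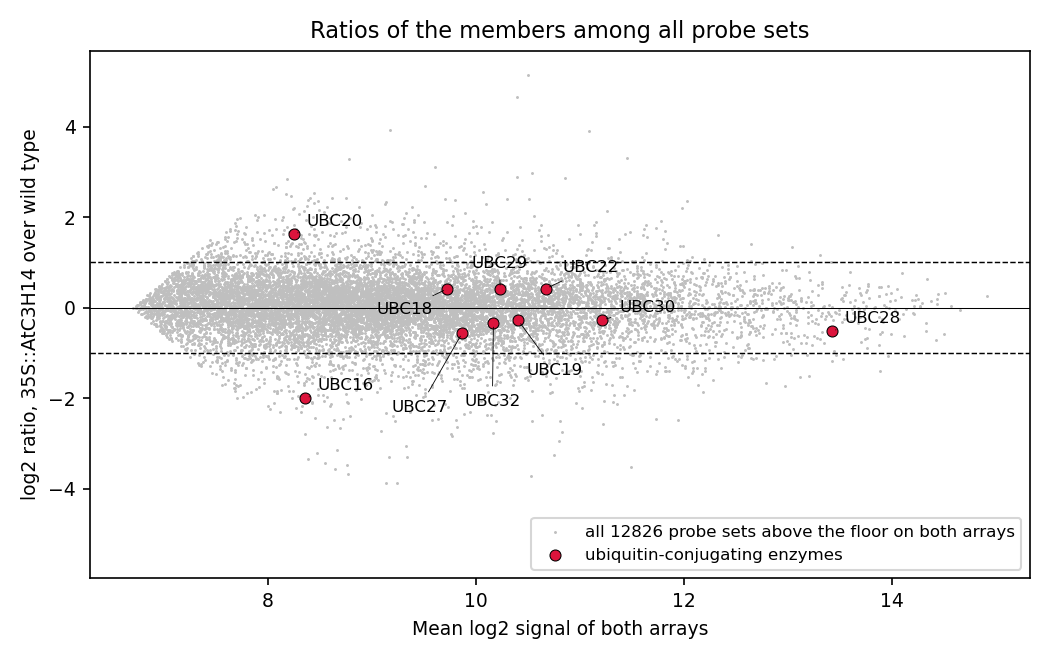
log2 ratio of 35S::AtC3H14 over wild type against the mean log2 signal of both arrays for the 12826 probe sets above the floor on both (grey points), with the 10 ubiquitin-conjugating enzymes in red and dashed lines at 2-fold. UBC20 and UBC16 lie outside the lines and the other 8 lie between the lines.

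Both outlying genes fell in the second of 5 equal classes of mean signal, in which 11.3% of probe sets were past 2-fold. In the classes of the other 8 genes, the fourth and the fifth, the shares were 10.9% and 11%, so 2-fold differences were about as common among probe sets as bright as theirs. The classes without a member, the first and the third, had 7.95% and 9.51%.

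The direction of 3 of the 8 ratios under 2-fold, those of UBC18, UBC22 and UBC29, turned with 1 scaling of the arrays. UBC19, UBC27, UBC28, UBC30 and UBC32 were below wild type under all 7 alternatives. Leaving out or raising the floor could not alter their ratios, since their signals lay above both floors. As deposited, the ratios of UBC19 (-0.28), UBC30 (-0.27) and UBC32 (-0.34) were smaller in size than the SD between probe sets of 1 gene, 0.35. Those of UBC27 (-0.55) and UBC28 (-0.52) were larger. The 18 spiked hybridization controls were all brighter on the 35S::AtC3H14 array, by 0.22 to 0.81 in log2. With the arrays scaled to these controls, which lowers each member by 0.52, UBC18, UBC22 and UBC29 had log2 ratios of -0.10, -0.10 and -0.12, so that UBC20 alone stayed above wild type, at 1.10. UBC27 and UBC28 then passed 2-fold lower, at -1.07 and -1.04, beside UBC16 at -2.52.

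**Figure D3:**
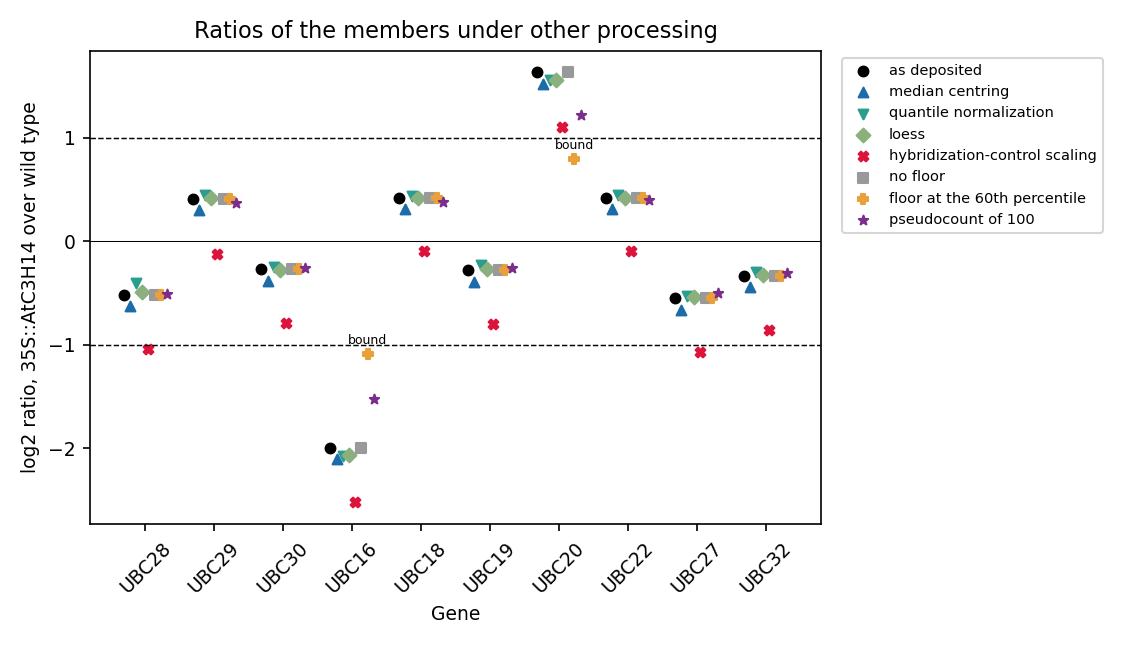
log2 ratio of each of the 10 genes as deposited (black circles) and under 7 other ways of processing (other symbols), with dashed lines at 2-fold and "bound" over points where 1 array lay below the floor. UBC16 stays past 2-fold lower throughout, UBC20 drops to a bound of 0.79 with the higher floor, and the hybridization-control scaling puts UBC18, UBC22 and UBC29 just below 0.

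The rest of the ubiquitin pathway, with related lists such as that of mitotic cyclins and kinases, was read through 152 entries in 9 lists. Of these entries, 21 had a probe set naming them alone and 18 were above the floor on at least 1 array. The E1 list (2 entries) and the list of ubiquitin genes (14 entries) had no such probe set and were not analysed here through named genes. Of the 18 genes, 1 was at least 2-fold higher and none at least 2-fold lower. That gene was AUR1 (AT4G32830), an Aurora kinase of the mitotic spindle and cell plate, in the list of mitotic cyclins and kinases. It went from 82.9, which is below the floor, to 249, at least 2.39-fold higher. Its close relative AUR2 (AT2G25880) went from 58.2 to 158, a bound of at least 1.52-fold that leaves 2-fold unshown. Of probe sets below the floor in wild type only, 17.6% had a bound of 2-fold or more. AUR1 and AUR2 were the only 2 of 14 entries of the mitotic list with a probe set of their own, and the mitotic cyclins, including CYCB1;1, and KNOLLE were not analysed here. With the higher floor both Aurora kinases were below it on both arrays and had no ratio, and with a pseudocount of 100 in place of the floor AUR1 had a log2 ratio of 0.93, under 2-fold.

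A wider list of 58 cell division loci, added after values had been seen, had 6 genes read alone and 2 above the floor on at least 1 array. MCM7 (AT4G02060), a subunit of the helicase that opens DNA for replication, went from 46.2 to 174, a bound of at least 1.68-fold. SIM (AT5G04470), an inhibitor of cyclin-dependent kinases that holds back mitosis in cells that enlarge their genomes, went from 925 to 511, a log2 ratio of -0.85. HTR12, BUBR1, AUR3 and SMC2 lay below the floor on both arrays, at signals from 21.9 to 84.2. None of the 6 was shown past 2-fold with the floor in place. With no floor, where ratios rest in part on very low signals, MCM7 had a log2 ratio of 1.92, AUR1 of 1.59 and AUR2 of 1.44. These 3 genes are those with a bound above wild type. Of the genes below the floor, AUR3 (21.9 and 84.2) and HTR12 (44.4 and 82.9) were also brighter in 35S::AtC3H14. BUBR1 (58.6 and 61.7) and SMC2 (60 and 67.9) hardly differed. Leaving out the floor put 3428 probe sets past 2-fold upward and 2409 downward, against 579 and 720 with it. The 3 ratios thus do not set division genes apart.

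The partner of the UBC19 and UBC20 pair, the APC/C, was read through 2 of 16 entries. HBT (AT2G20000), a core subunit, went from 306 to 312, a log2 ratio of 0.031. CDC27A (AT3G16320), the relative of HBT, was below the floor on both arrays, at 85.2 and 67.6. Levels of the other APC/C subunits and of the activators were not analysed here.

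Among the other E2 and E2-like genes, 4 of 33 entries were read alone and 2 were above the floor. UBC21 (AT5G25760, also PEX4), an E2 of the peroxisome, had signals of 1414 and 1363, a log2 ratio of -0.053. ELC (AT3G12400), an inactive E2-like protein of endosomal sorting, went from 1034 to 802, a log2 ratio of -0.37. UBC31, at 8.15 and 3.82, and UBC37, at 59.4 and 82.8, were below the floor on both arrays. Over these and the 10 members, 12 E2 or E2-like genes had a ratio and UBC16 and UBC20 were the only ones past 2-fold. Among all probe sets above the floor on both arrays 10.1% were, so 2 of 12 is too few to set these genes apart.

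The measured genes of the proteasome and of the SUMO and RUB pathways were under 2-fold. Of the 3 proteasome genes, PAB2 (AT1G79210), a subunit of the core, had a log2 ratio of 0.34, RPN11 (AT5G23540), which removes ubiquitin at the lid, 0.17 and RPN12A (AT1G64520), another lid subunit, 0.47. Their median was 0.34, and -0.18 with the hybridization-control scaling. In the pathways of the ubiquitin relatives SUMO and RUB, the median over 3 genes was 0.018. SAE1A (AT4G24940), a part of the SUMO E1, had a log2 ratio of 0.32, and RCE2 (AT2G18600), a RUB-conjugating E2-like gene, of 0.018. The SUMO ligase SIZ1 (AT5G60410) was read by 2 probe sets that disagreed, at 0.17 and -0.49.

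For the degradation pathway of the endoplasmic reticulum, in which UBC32 acts, 4 of 16 entries were measured, with a median log2 ratio of 0.10. DER1 (AT4G29330), a gene of the export channel family, went from 403 to 682, a log2 ratio of 0.76, while its other probe set lay below the floor. OS9 (AT5G35080), a lectin that recognizes misfolded glycoproteins, had a log2 ratio of 0.26. The stress transcription factor genes BZIP60 (AT1G42990) and BZIP28 (AT3G10800) had ratios of -0.16 and -0.061. None of these was past 2-fold, and neither was UBC32.

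The enzymes that take ubiquitin off again had small differences. The list had UBP15 (AT1G17110), UBP16 (AT4G24560) and UBP26 (AT3G49600), at log2 ratios of 0.45, 0.15 and 0.51, and a median of 0.45 that became -0.074 with the hybridization-control scaling. Over all 12 ubiquitin-specific proteases with a symbol of that family, a list taken after values had been seen, 11 were above wild type and 1, UBP21, below it by a bound, with a median of 0.28 and none past 2-fold. The median over all probe sets above the floor was 0.039. The control scaling, which lowers all ratios above the floor alike by 0.52, put the family median at -0.25. Of 14 E3 ligase genes taken by symbol, also afterwards, 12 were measured with a median of -0.15, and 1, ATL8, a RING-type ligase, was past 2-fold, 4.55-fold lower. Over all probe sets above the floor on both arrays 10.1% were past 2-fold, so 12 genes are too few to set either family apart from that share. PUB23, a U-box ligase of stress responses, was 1.96 times as high and just under 2-fold.

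The array's 5 control probe sets for polyubiquitin transcripts (2 series that read the 3' end, the middle or the 5' end) were bright on both arrays, with signals from 6266 to 17276. Of these, 4 had log2 ratios from -0.16 to -0.068. The middle probe set of the first series differed from them, going from 10183 to 6266, a log2 ratio of -0.70, which is also under 2-fold.

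**Figure D4:**
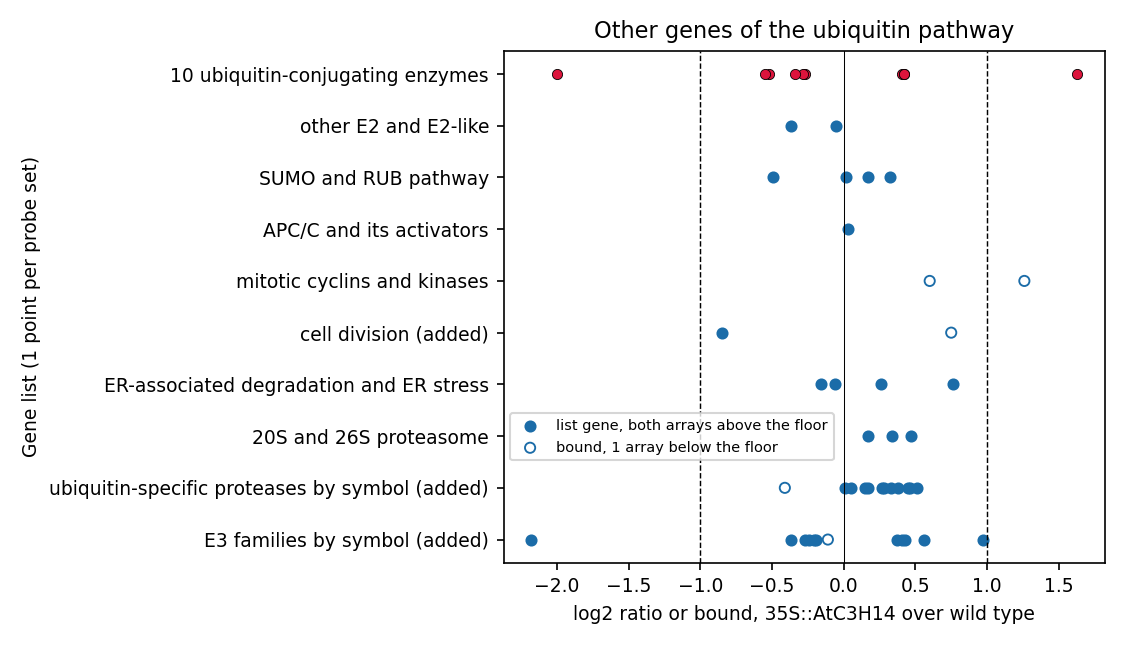
log2 ratio or bound of 35S::AtC3H14 over wild type for the 10 ubiquitin-conjugating enzymes (red, top) and for measured genes of the other lists (blue, 1 point per probe set, open where 1 array lay below the floor), with dashed lines at 2-fold. Apart from UBC16, UBC20, the bound of AUR1 at 1.26 and ATL8 at -2.18, all points lie between the lines.

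The genes most like the outlying enzymes were sought by the distance between pairs of log2 signals over the 2 samples, among named genes above the floor on both arrays. Nearest to UBC16 were AGO7 (678 and 151), TBL26 (711 and 143) and CLE44 (524 and 141). Nearest to UBC20 were AR781 (169 and 547), COR15A (191 and 593) and CYP71B34 (199.8 and 534). UBC19 lay closest to PGRL1B (1492 and 1230.5), CUL4 (1457 and 1206) and LSM1A (1435 and 1239). With 2 samples such likeness is only a likeness of 2 numbers.

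The genes on either side of each enzyme in the TAIR10.1 gene table were also read. Of the 20 neighbours, 7 were above the floor on at least 1 array, and none of the 7 was past 2-fold. Among all probe sets above the floor on both arrays 10.1% were, so 7 genes are too few to set the neighbours apart. TTN9 (AT3G20070), next to UBC19, went from 211 to 176, a log2 ratio of -0.26 beside -0.28 for UBC19. AT5G50860 was at -0.34 and AT5G50890 at 0.61, beside -0.55 for UBC27. AT5G56140 was at -0.17 and AT5G56160 at a bound of 0.043, beside -0.27 for UBC30. AT3G16990 was at 0.12 beside -0.34 for UBC32, and AT2G16750 at a bound of 0.65 beside 0.41 for UBC29. Neighbours thus lay on the same side of wild type as their enzyme in some cases and on the other side in others. Both neighbours of UBC16 (BLH11 and CKX5) and of UBC20 (THFS and HIT1) were not analysed here.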

How the data were processed

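Each of 2 stem samples gave 1 ATH1 array. The authors deposited 1 linear intensity for each probe set. MAS5 is the tool in the submitters' processing notes, with no version given in the sources used here. Their 2% trimmed mean was 500.04 on both arrays, and the medians were 180.2 and 194. Of 22810 probe sets, 64 controls were set apart. Genes were named through the platform annotation, updated through the TAIR10.1 gene table. Of the 22746 others, 13513 named 1 gene, 503 several and 8730 were not listed. Of those naming 1 gene, 77 had no match by gene number in the table.

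Ratios are 35S::AtC3H14 over wild type. A signal below the floor on 1 array gave a bound computed against the floor, and on both arrays no ratio. Several probe sets of a list gene were averaged, and a median was given for lists with at least 3 measured genes. No test was possible with 1 sample per group. The code was tested on simulated data. The named genes were all members, AtC3H14, up to 4 measured genes of each list and the 3 nearest genes to UBC16, UBC19 and UBC20; other list genes were named after their values were seen. The members and lists were chosen with earlier results of these data known, and the cell division, UBP and E3 lists and the neighbouring genes were added after values were seen. Lists by product description and the sequence comparison that had been planned were not made, since the tables used here hold neither. The number of arrays limits the precision. Python 3.11.15, numpy 2.4.6, pandas 2.3.3 and statsmodels 0.14.6 were used.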

Additional observations from a re-analysis of the deposited data

How the results depend on the processing

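No paired analysis was possible because each group had 1 sample, and no sample could be left out. Of 70 member ratios under 7 alternatives, 56 moved by less than the SD between probe sets (0.35) and 14 moved by more: all 10 with the hybridization-control scaling, and UBC16 and UBC20 each with the higher floor (60th percentile) and a pseudocount of 100 (-1.52 and 1.22). Median centring, quantile normalization and loess (span 0.4) moved no member that far. Leaving out the floor could not move any of the 10, since all lay above it on both arrays. Nor could the higher floor move the 8 members above it on both arrays. These unmoved ratios are counted in the 56 though they were fixed in advance. The contrast of UBC19 and UBC20 was -1.07, a bound, with the higher floor and -1.48 with the pseudocount. No member was then at least 2-fold higher with the higher floor (0), and 3 were lower with the control scaling. That scaling put the median of the members at -0.80, of proteasome genes at -0.18, of E3 genes at -0.55, of endoplasmic reticulum genes at -0.42, of SUMO and RUB genes at -0.50, of deubiquitinases at -0.074 and of UBP genes at -0.25. It gave 207 probe sets higher and 2143 lower in all (8.81% higher, against 44.6% as deposited and 34% with median centring). No floor gave 3428 and 2409 (58.7% higher), the higher floor 261 and 429, 1.5-fold 1855 and 1813, and 3-fold 162 and 182. At 1.5-fold and at 3-fold the members past the size were still 1 higher and 1 lower. With the higher floor, deubiquitinases and SUMO and RUB genes were too few for a median. Signals near the floor limit the ratios of UBC16, UBC20 and the Aurora kinases.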
